A study of Mus musculus with 31 samples.

Results

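Nanog, Zfp42, Klf2, Fbxo15 and Tcl1 are 5 genes of the naive pluripotent state, and their signals were followed over 31 microarrays of mouse embryonic stem (ES) cells and the embryoid bodies (EBs) made from them. They were chosen from the measured values, as genes low in ES cells on gelatin, high in sorted ES cells and high again in some day 8 EBs. Every probe set annotated to exactly 1 of these symbols was taken, which gave 6 probe sets of 10833 with a single symbol, and 5 genes of 8251. Nanog had 2 probe sets and each other gene had 1. Because the choice used the levels in gelatin, sorted and day 8 samples, differences that involve those groups are given as a description with no test, and the day 14 minus day 4 difference is the only one tested. That difference was not named by the choice, although a return at day 8 implies a lower level at day 4.

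All samples came from B6 mouse ES cells, which were grown on mouse embryonic feeders with 15% serum and leukemia inhibitory factor (LIF). The gelatin group (n = 6) held cells that had been depleted of feeders and then grown on gelatin. The sorted group (n = 6) held undifferentiated cells isolated by flow sorting on a GFP reporter of Oct4 (Pou5f1), so that Oct4 activity itself defined that group. Embryoid bodies were aggregates of gelatin-grown cells in nonadherent dishes without LIF, collected at day 4 (n = 7), day 8 (n = 6) and day 14 (n = 6). No genetic change other than the reporter is named in the labels, which do not say whether the unsorted groups carried the reporter. Total RNA was amplified in 2 rounds and measured on Affymetrix MgU74Av2 arrays. Each value is a linear signal in arbitrary units, and a level is compared only between arrays for the same probe set, never between genes. An EB is a mixture, so fewer cells of a type and less RNA per cell cannot be told apart. The labels number the replicates without naming separate cultures, so the p-values measure the spread between these samples, which may be technical. Unless stated, each SE and p-value of a difference between groups used a spread estimated over all 5 groups. The day 8 spread therefore also enters comparisons that do not involve day 8.

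The naive state is the ground condition of the preimplantation epiblast and of mouse ES cells kept in LIF, which acts through its receptor and the transcription factor STAT3. Nanog is a homeodomain factor of the pluripotency core, Klf2 is a zinc finger factor of the Kruppel-like family that helps maintain self-renewal, and Zfp42 (REX1) is a zinc finger protein long used as a marker of undifferentiated cells. Fbxo15 is an F-box protein that is dispensable for self-renewal but expressed predominantly in undifferentiated ES cells, and Tcl1 is a co-activator of the kinase AKT.

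The 250 bases upstream of the annotated start are shown for the 4 genes Nanog, Zfp42, Klf2 and Tcl1, to show which motif letters they do and do not share. The window of Fbxo15 is not shown, so nothing is said of its letters. The sequences are from RefSeq (GRCm38.p6), are written 5′ to 3′ on the strand of the gene, and lie at chr6:122707315-122707564 (plus strand, Nanog, the downstream window of 2 annotated starts), chr8:43307010-43307259 (minus strand, Zfp42), chr8:72318812-72319061 (plus strand, Klf2) and chr12:105222738-105222987 (minus strand, Tcl1). Capitals mark every match to ATGCAAA, the octamer of Oct4 binding sites without its last letter (here octamer letters), or to the KLF box letters GGGNGTGG. Each was searched on both strands, with no overlap between the matches.
Nanog: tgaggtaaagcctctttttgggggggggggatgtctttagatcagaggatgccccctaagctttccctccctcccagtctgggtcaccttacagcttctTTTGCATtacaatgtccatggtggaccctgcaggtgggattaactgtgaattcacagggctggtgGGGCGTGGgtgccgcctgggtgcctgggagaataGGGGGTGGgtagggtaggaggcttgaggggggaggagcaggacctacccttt
Zfp42: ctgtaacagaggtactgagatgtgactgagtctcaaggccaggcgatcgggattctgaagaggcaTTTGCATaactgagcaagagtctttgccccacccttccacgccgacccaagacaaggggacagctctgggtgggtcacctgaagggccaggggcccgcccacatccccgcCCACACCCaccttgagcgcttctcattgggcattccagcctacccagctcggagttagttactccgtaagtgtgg
Klf2: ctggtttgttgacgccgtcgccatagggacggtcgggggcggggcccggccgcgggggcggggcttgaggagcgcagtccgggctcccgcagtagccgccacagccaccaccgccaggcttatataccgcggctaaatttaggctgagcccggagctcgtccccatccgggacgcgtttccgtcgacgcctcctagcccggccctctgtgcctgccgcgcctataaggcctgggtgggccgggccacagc
Tcl1: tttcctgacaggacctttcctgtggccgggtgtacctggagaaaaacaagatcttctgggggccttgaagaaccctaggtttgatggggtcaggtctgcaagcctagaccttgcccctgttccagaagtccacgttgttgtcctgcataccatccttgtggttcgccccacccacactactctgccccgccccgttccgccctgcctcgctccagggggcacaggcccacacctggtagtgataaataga
Nanog held 1 match to the octamer letters, 151 to 145 bases before the start, and 2 KLF boxes, 86 to 79 and 52 to 45 bases before it. Zfp42 held 1 match to the octamer letters at 185 to 179 bases and 1 KLF box at 75 to 68 bases. The windows of Klf2 and Tcl1 held neither set of letters. Of 32851 promoter windows of the same length, 4.12% held the octamer letters and 15.9% the KLF box. A match is a description of letters, not of a bound site.

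The array medians lay between 553 and 637, and the correlation of log2 signal between arrays of a group was 0.947 to 0.997. Day 4 arrays 6 and 7 stood apart from the other 5 arrays of their group (r of 0.947 to 0.978 with them, against 0.987 to 0.993 among the 5 and 0.991 between arrays 6 and 7). At day 8, array 1 correlated with arrays 3 and 5 at 0.995 and 0.996 but with array 2 at 0.976, and array 2 correlated with array 4 at 0.994. Array 6 lay between these, with 0.986 to 0.990 to each of the other 5. The signal of Pou5f1 was 4719 ± 584 (SD, n = 6) on gelatin and 6419 ± 523 (SD, n = 6) in sorted cells. Because its reporter defined the sorted group, this is no independent check of that label. The 3′ to 5′ signal ratio of Gapdh, a measure of RNA or amplification quality, was 3.48 to 6.85 on gelatin and 2.76 to 3.09 in sorted cells, so it moved with that comparison, and its part in the result was not tested. At day 8 this ratio was 2.11 to 2.61.

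**Figure D1:**
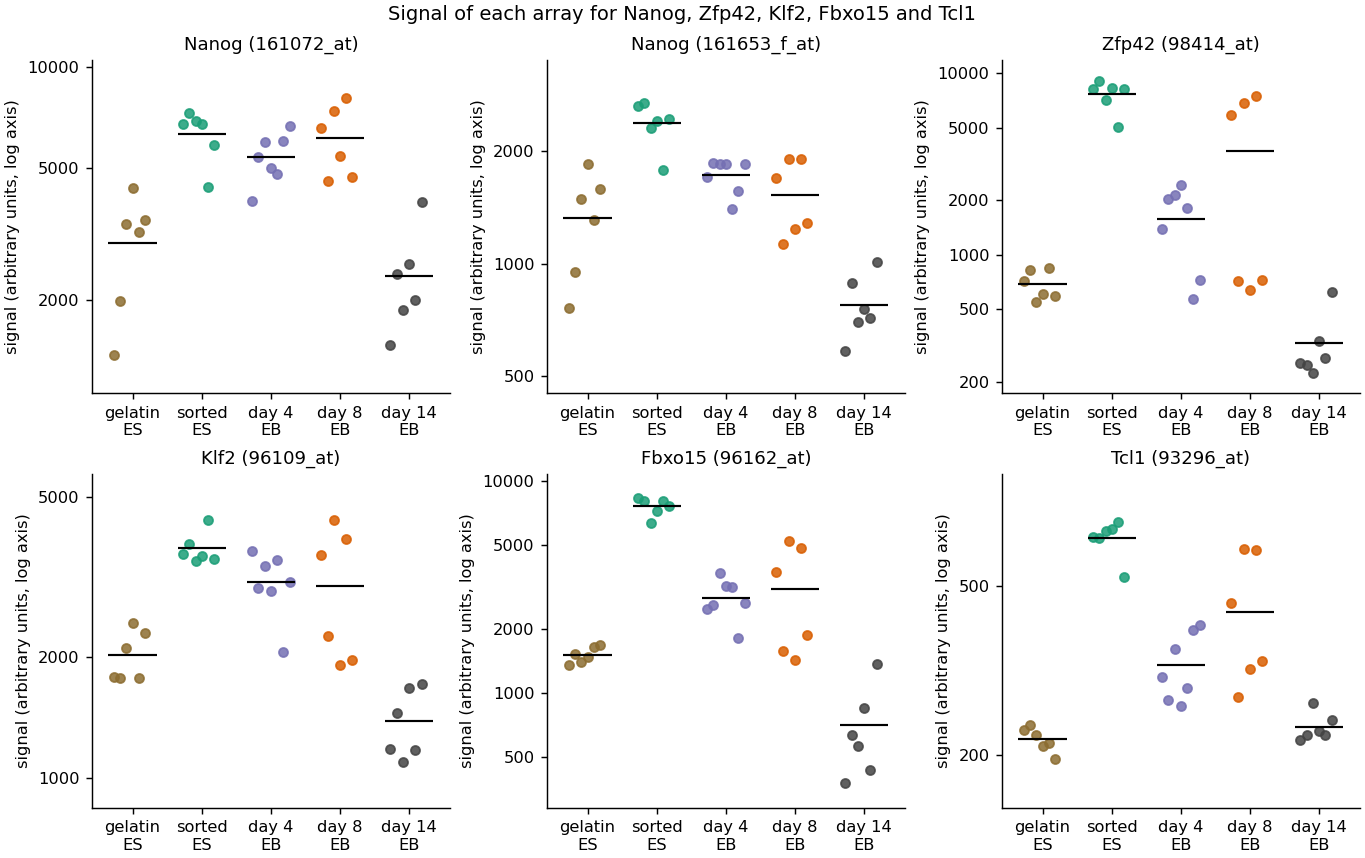
Signal of each array (points, log axis, arbitrary units) for the 6 probe sets in the 5 groups, with the group mean as a line. The day 8 points of Zfp42 fall into a set at 5825 to 7451 and a set at 635 to 730, and the day 14 points of all 6 probe sets lie below every day 8 point.

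Zfp42 (probe set 98414_at) had the widest range of the 5 genes on the log2 scale. On gelatin its signal was 718, 827, 550, 610, 845 and 591 in arrays 1 to 6, and in sorted cells it was 8100, 9032, 7113, 8279, 5058 and 8129. Every sorted array was above every gelatin array, and the log2 difference of gelatin minus sorted was -3.46 ± 0.52 (SE). At day 4 the signal was 1376, 2012, 2125, 2426, 1805, 572 and 725 in arrays 1 to 7, so that arrays 6 and 7 were at the gelatin level and the other 5 above it. The day 8 arrays read 5825, 716, 6845, 635, 7451 and 730. Arrays 1, 3 and 5 fell within the range of sorted cells and arrays 2, 4 and 6 within that of gelatin, with no array between, so the day 8 mean of 3700 ± 3335 (SD, n = 6) describes no single array. At day 14 the signal was 254, 247, 224, 336, 270 and 626, lower than at every day 8 array.

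Fbxo15 (96162_at) varied little within either ES group, with a coefficient of variation of 8.62% on gelatin and 9.42% in sorted cells. Its signal on gelatin was 1353, 1537, 1410, 1489, 1643 and 1692, against 8268, 8028, 6336, 7205, 8008 and 7603 in sorted cells. The groups did not overlap and differed by -2.32 ± 0.29 on the log2 scale (gelatin minus sorted, SE). Day 4 EBs read 2484, 2592, 3680, 3196, 3176, 1827 and 2654, all above gelatin and all below sorted cells. Day 8 EBs read 3738, 1574, 5212, 1431, 4835 and 1873, again high in arrays 1, 3 and 5, but none reached the sorted range. At day 14 the values were 377, 637, 563, 857, 436 and 1375, and array 6 was the only one to reach the gelatin range.

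Nanog (161072_at) was already high at day 4. On gelatin it read 1365, 1984, 3392, 4351, 3210 and 3493, and in sorted cells 6753, 7281, 6908, 6738, 4363 and 5833. These groups were separated only by the gap between 4351 and 4363, and differed by -1.17 ± 0.23 on the log2 scale (gelatin minus sorted, SE). Day 4 EBs already read 3969, 5373, 5979, 4984, 4781, 6030 and 6653, so 6 of 7 arrays exceeded every gelatin array and there was no low point from which Nanog came back at day 8. This was not particular to Nanog, since most day 4 arrays of Fbxo15, Klf2 and Tcl1 also exceeded every gelatin array. Day 8 EBs read 6553, 4571, 7379, 5421, 8087 and 4685, and all 6 were above gelatin. The order of arrays within day 8 was still that of Zfp42, with 1, 3 and 5 above 2, 4 and 6. Day 14 EBs read 1472, 2392, 1870, 2561, 2003 and 3937, all within the gelatin range.

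The second Nanog probe set, 161653_f_at, carries a suffix that Affymetrix used for probes shared by related sequences, and Nanog has near-identical retrogene copies, so its values are uncertain as a measure of Nanog alone. It read 761, 951, 1485, 1844, 1310 and 1584 on gelatin and 2644, 2701, 2308, 2414, 1778 and 2443 in sorted cells, overlapping at 1778 and 1844. Day 4 EBs read 1704, 1857, 1850, 1845, 1403, 1564 and 1844, and day 8 EBs read 1693, 1129, 1907, 1235, 1909 and 1287. Day 14 EBs read 583, 886, 696, 755, 716 and 1008. The alternation of day 8 arrays was the same as for the other Nanog probe set, but the day 8 mean of 1527 was below the day 4 mean of 1724, where 161072_at had 6116 at day 8 and 5396 at day 4.

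Klf2 (96109_at) had the smallest log2 difference between gelatin and sorted cells among the brighter probe sets of the genes, -0.89 ± 0.18 (SE). Gelatin arrays read 1786, 1771, 2103, 2430, 1779 and 2298, and sorted arrays 3622, 3821, 3479, 3563, 4391 and 3506, with no overlap. Day 4 EBs read 3678, 2968, 3365, 2926, 3483, 2060 and 3074, so that all but array 6 lay above gelatin. Day 8 EBs read 3585, 2257, 4383, 1915, 3943 and 1968, with arrays 1, 3 and 5 in the sorted range and arrays 2, 4 and 6 in the gelatin range. Day 14 EBs read 1185, 1455, 1098, 1681, 1177 and 1719, all below every gelatin array.

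Tcl1 (93296_at) was a dim probe set, at the 36.1 percentile of mean signal. It read 229, 235, 222, 210, 214 and 195 on gelatin and 652, 651, 676, 683, 706 and 525 in sorted cells. The log2 difference of gelatin minus sorted was -1.57 ± 0.15 (SE), without overlap. Day 4 EBs read 304, 269, 355, 261, 288, 394 and 405, all above gelatin, and here arrays 6 and 7 were the highest of their group, where for Zfp42 they were the lowest. Day 8 EBs read 457, 273, 612, 319, 607 and 332, and arrays 3 and 5 reached the sorted range. Day 14 EBs read 217, 223, 265, 228, 222 and 241, close to gelatin.

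Ordered by mean signal, all 6 probe sets were highest in sorted cells. The order then ran day 8, day 4, gelatin, day 14 for Nanog (161072_at), Zfp42 and Fbxo15, day 4, day 8, gelatin, day 14 for Klf2 and 161653_f_at, and day 8, day 4, day 14, gelatin for Tcl1. Neighbours in these orders overlapped array by array with 3 exceptions, which were sorted above day 8 and day 4 above gelatin for Fbxo15, and gelatin above day 14 for Klf2. Day 8 and day 4 overlapped for all 6 probe sets, and the log2 difference of day 8 minus day 4 was 0.62 ± 0.50 (SE) for Zfp42, 0.36 ± 0.15 for Tcl1, 0.16 ± 0.23 for Nanog, -0.20 ± 0.17 for 161653_f_at, -0.02 ± 0.28 for Fbxo15 and -0.09 ± 0.17 for Klf2. By mean signal, day 8 was above day 4 for Zfp42, Tcl1, Fbxo15 and Nanog (161072_at), while the log2 difference of Fbxo15 was near 0.

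The share of probe sets whose arrays do not overlap gives the background for these orders, and nothing is read from it where the choice of genes used the contrast. Gelatin was below sorted without overlap for 5 of the 6 probe sets and for 9.81% of all 12422. Day 4 was above gelatin without overlap for Fbxo15 and Tcl1, 2 of 6, against 2.04% of all, and below sorted for Zfp42, Fbxo15 and Tcl1, 3 of 6, against 3.12%. Day 8 was above gelatin without overlap for Nanog (161072_at) and Tcl1, 2 of 6, against 9.03%, and below sorted for Fbxo15, 1 of 6, against 10.2%. Day 14 was below sorted without overlap for 6 of 6 (14.2% of all), below day 8 for 6 of 6 (5.57%) and below gelatin for Klf2, 1 of 6 (15.9%).

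**Figure D2:**
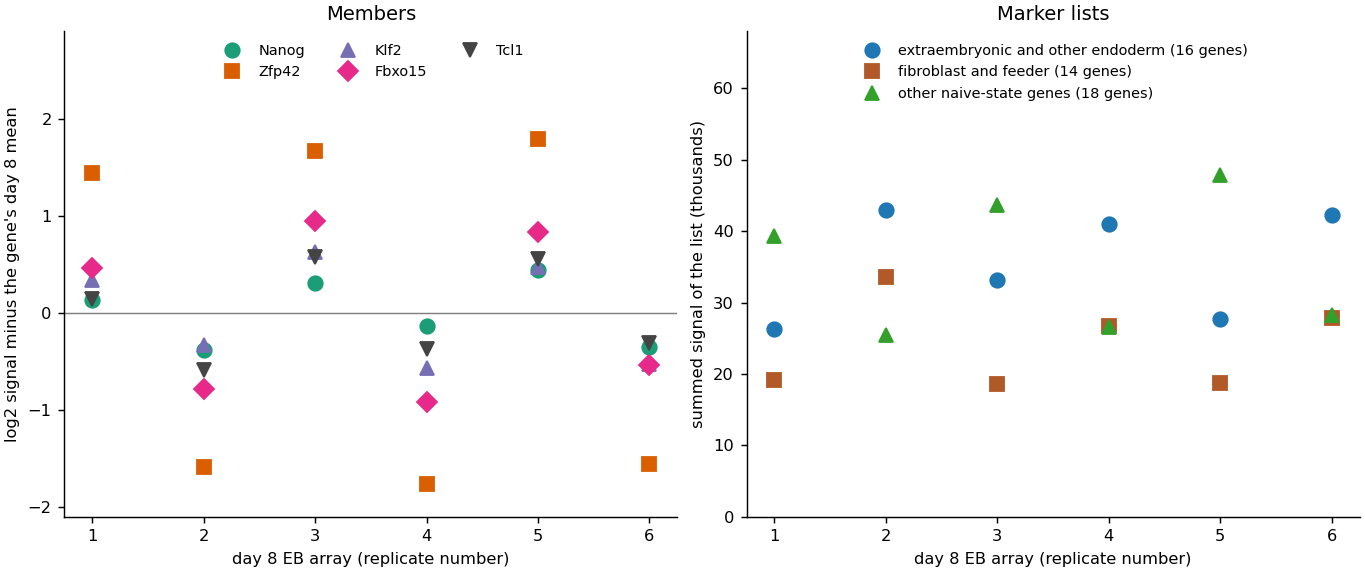
The 6 day 8 arrays in replicate order. Left, log2 signal of each gene minus its own day 8 mean, where arrays 1, 3 and 5 lie above 0 and arrays 2, 4 and 6 below 0 for all 5 genes. Right, signal summed over 3 marker lists, with the endoderm sum running from 26320 in array 1 to 42965 in array 2.

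The alternation at day 8 was shared by all 6 probe sets, since arrays 1, 3 and 5 were the 3 highest for each of them. Its size differed between genes, with a ratio of highest to lowest array of 11.7 for Zfp42, 3.64 for Fbxo15, 2.29 for Klf2, 2.24 for Tcl1 and 1.77 for Nanog (161072_at). Other pluripotency genes followed it. Pou5f1, the core factor whose reporter was used for sorting, read 2016, 961, 2316, 949, 2747 and 1210 in day 8 arrays 1 to 6. The summed signal of the 18 other naive-state genes measured was 39345, 25421, 43657, 26534, 47844 and 28264. Both were therefore lowest in arrays 2, 4 and 6.

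Markers of differentiated cells ran the other way over the same arrays. The summed signal of 16 extraembryonic and other endoderm markers was 26320, 42965, 33216, 40982, 27747 and 42306, and that of 14 fibroblast and feeder markers was 19191, 33524, 18595, 26761, 18701 and 27885. Rbp4, a retinol carrier of visceral endoderm, read 4637, 8065, 6023, 7514, 4153 and 8364, and the collagen gene Col1a2 read 709, 2068, 711, 1617, 610 and 1747. The 6 germ cell markers measured summed to 5515, 5872, 5814, 5261, 6204 and 4505, with Sycp3 at or below the floor on all 31 arrays. The part of cell composition in the day 8 values was not tested. The Gapdh 3′ to 5′ ratio of the 6 arrays was 2.25, 2.46, 2.11, 2.61, 2.17 and 2.29, lowest in arrays 3, 5 and 1 in turn. The same ratio of actin did not follow this order. It was 2.83, 2.92, 2.84, 3.48, 3.17 and 2.66, lowest in array 6. The part of these ratios was not tested either.

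The fibroblast and feeder markers also moved with the comparison of gelatin and sorted cells. Their sum was 43742 to 68981 on gelatin and 21898 to 29209 in sorted cells, and the endoderm sum was 11791 to 15259 on gelatin and 8465 to 9074 in sorted cells. Of the 14 fibroblast and feeder markers, 10 were higher on gelatin and none was lower (limma, adjusted p under 0.05), where 21.4% of all probe sets were higher. The 16 endoderm markers had no common direction, with 3 higher, 2 lower (18.2% of all probe sets were lower) and 11 not passing. Tagln, an actin-binding protein of smooth muscle and fibroblasts, was 9548 on gelatin and 2544 in sorted cells. The part of these markers in the lower level of the 5 genes on gelatin was not tested.

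Between day 4 and day 14, the signals of all 5 genes fell. The test was limma on log2 signal over all probe sets, with Benjamini-Hochberg adjustment, and 6 of 6 probe sets were lower at an adjusted p under 0.05, where 19.6% of all 12422 were lower and 25.3% higher. For 4 of the 6 the arrays of the 2 days did not overlap, against 7.72% of all. Zfp42 fell by 2.20 ± 0.50 on the log2 scale (SE, adjusted p = 0.000745), and only day 4 array 6, at 572, lay below the highest day 14 array, at 626. Fbxo15 fell by 2.10 ± 0.28 (adjusted p = 5.41e-07) and Klf2 by 1.15 ± 0.17 (adjusted p = 3.5e-06), Fbxo15 from a mean of 2801 to 707 and Klf2 from 3079 to 1386. Nanog fell by 1.24 ± 0.23 for 161072_at (adjusted p = 5.46e-05) and by 1.17 ± 0.17 for 161653_f_at (adjusted p = 2.23e-06).

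Tcl1 had the smallest change, and fell by 0.46 ± 0.15 (adjusted p = 0.0109), with overlapping arrays and both group means dim. Without day 4 arrays 6 and 7, which stood apart and held the 2 highest day 4 values of Tcl1, it fell by 0.34 and did not pass (adjusted p = 0.0738). The other 5 probe sets passed under every alternative run. Over the same interval the endoderm sum went from 8009 to 15799 at day 4 to 44025 to 63344 at day 14, and the fibroblast and feeder sum from 14291 to 25940 to 38280 to 57720. Over all probe sets, 25.3% rose and 19.6% fell. Of the endoderm markers 13 of 16 rose and none fell (0 to 2 fell over the alternatives), and of the fibroblast and feeder markers 10 of 14 rose and 2 fell. Their part in the decrease was not tested.

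**Figure D3:**
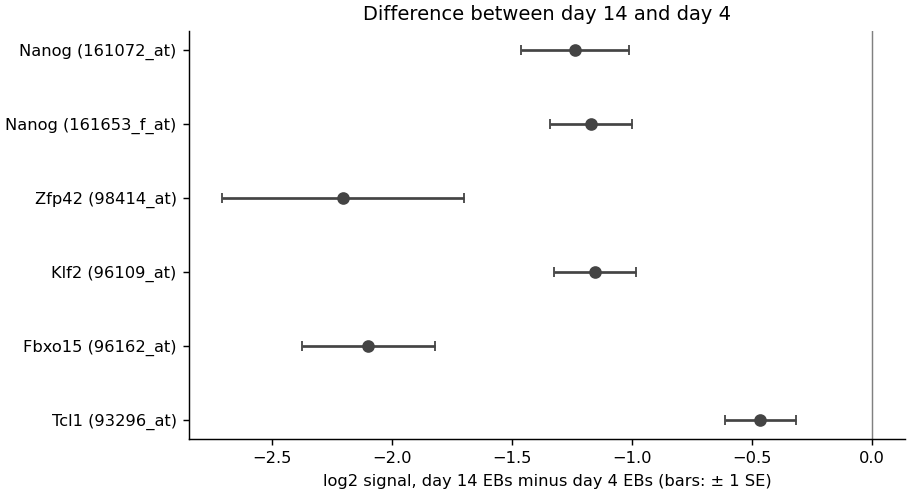
Log2 difference of signal between day 14 and day 4 EBs (points) with 1 standard error (bars) for the 6 probe sets. All 6 lie below 0, from -2.20 for Zfp42 to -0.46 for Tcl1.

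Other genes of the naive state, taken as a list of 20 of which 18 were measured, gave a comparison. Between day 4 and day 14, 14 of 18 fell and 1 rose, where 19.6% and 25.3% of all probe sets did. The alternatives gave 11 to 15 that fell, and the median log2 difference was -0.90 against 0.02 over all probe sets. Dppa3 (Stella), a maternal factor that protects imprinted methylation, fell by 3.22 ± 0.25 (SE, adjusted p = 5.95e-11 by limma). Dppa2 and Dppa4, paired chromatin proteins of early embryos, fell by 2.71 ± 0.31 and 2.64 ± 0.26. The gene that rose was the growth factor Bmp4, by 0.39 ± 0.06.

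Between gelatin and sorted cells, 12 of these 18 genes were lower on gelatin (18.2% of all probe sets), 1 was higher and 5 did not pass, with a median of -0.47 against 0 over all probe sets. The orphan nuclear receptors Nr5a2 and Nr0b1 differed by -1.41 ± 0.22 and -1.23 ± 0.18 on the log2 scale (gelatin minus sorted, SE). Dppa3 differed by -1.38 ± 0.26 and Fgf4, a growth factor secreted by ES cells, by -1.21 ± 0.23. The gene higher on gelatin was the homeobox gene Gbx2, by 0.74 ± 0.20. The differences of Zfp42, Fbxo15 and Tcl1 lay beyond all of these, although Tcl1, at -1.57 ± 0.15, was close to Nr5a2. Those of Nanog and Klf2 lay within their range. Since the 5 genes were chosen by their levels in these groups, this is a description.

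Between day 4 and day 8, 6 of the 18 fell (12.6% of all probe sets), Bmp4 rose by 0.25 ± 0.06 (11.9%) and 11 did not pass, with a median of -0.45 against 0. This count depended on single arrays, with 3 lower without day 8 array 2 or without array 4, 3 in a fit of only the compared groups, and 9 without day 4 array 6, array 7 or both, or without day 8 array 5. Gbx2 fell by 0.89 ± 0.19 (SE) and Gdf3, a TGF-beta family ligand, by 0.89 ± 0.22, although Gdf3 did not pass in the fit of the compared groups (adjusted p = 0.0742 by limma). Dppa4 fell by 0.86 ± 0.26 and Dppa3 by 0.81 ± 0.25, and neither passed without day 8 array 2 (adjusted p = 0.0522 and 0.0534) or array 4 (adjusted p = 0.0534 and 0.0511). The day 8 minus day 4 values of the 5 genes, from -0.09 to 0.62 for the brighter probe sets, lay above this median, and since the genes were chosen for a high day 8 level this is a description.

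**Figure D4:**
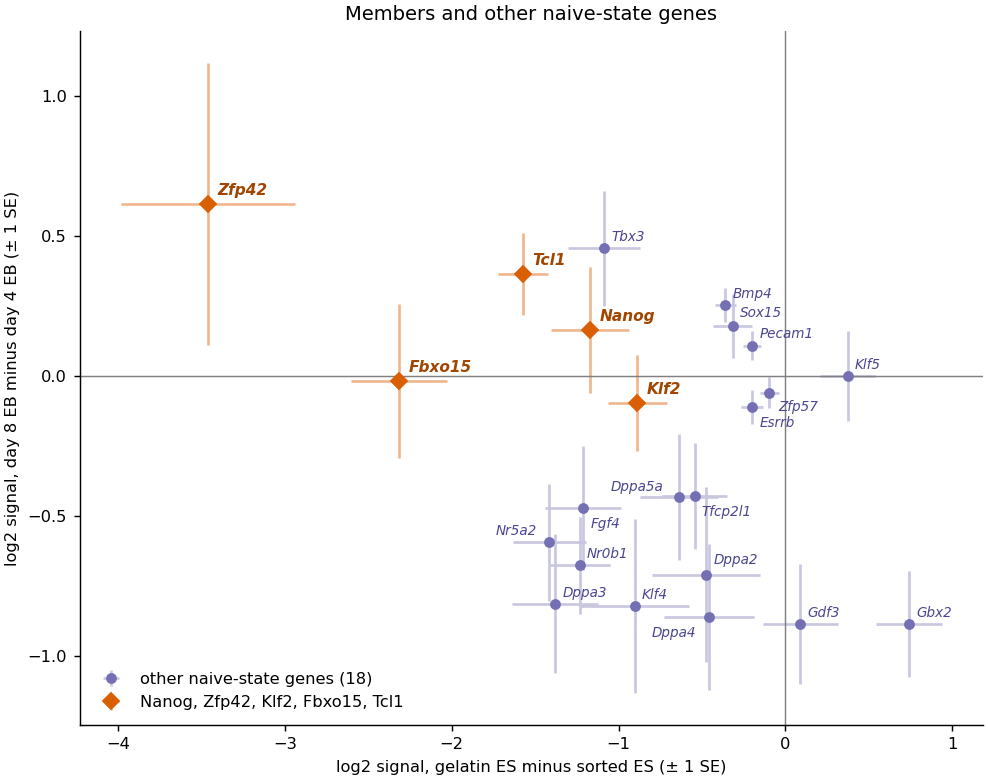
Log2 difference of gelatin minus sorted ES cells (horizontal) against that of day 8 minus day 4 EBs (vertical), with 1 standard error, for the 5 genes (diamonds) and the 18 other naive-state genes (circles). The 5 genes lie to the left, from -3.46 to -0.89, and between -0.09 and 0.62 vertically, where the median of the other genes is -0.45.

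General pluripotency genes, which naive and primed cells share, had no common direction between the ES cell groups. Of 10 measured, 3 were higher and 2 lower on gelatin, where 21.4% and 18.2% of all probe sets were, and the alternatives gave 1 to 5 higher and 1 to 4 lower. Pou5f1 itself differed by -0.45 ± 0.26 (SE), which did not pass (adjusted p = 0.182), but passed in the fit of the compared groups (adjusted p = 0.00158) and with array weights (adjusted p = 0.0423). Sall4, a zinc finger factor, was 0.91 ± 0.14 higher on gelatin. The 2 lower included Sox2, the partner of Oct4, by 0.37 ± 0.14, a call lost without any 1 of 8 arrays (adjusted p = 0.0525 to 0.0906). From day 4 to day 8, 6 of 10 fell (12.6% of all; 3 to 9 over the alternatives) and none rose, with Pou5f1 falling by 1.57 ± 0.25 (adjusted p = 4.06e-05). From day 4 to day 14, 7 of 10 fell (19.6% of all), Pou5f1 by 2.18 ± 0.25 and the Nodal co-receptor Tdgf1 by 2.10 ± 0.23.

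In the LIF and STAT3 pathway, the route by which LIF sustains the naive state, 5 of 12 measured genes were higher and 5 lower on gelatin (21.4% and 18.2% of all probe sets), with 3 to 6 and 4 to 6 over the alternatives. The receptor Lifr was 1.26 ± 0.17 lower on gelatin on the log2 scale, rose by 1.08 ± 0.16 from day 4 to day 8 and rose by 1.53 ± 0.16 from day 4 to day 14, in EBs grown without LIF. The early response gene Fos was 2.89 ± 0.47 higher on gelatin and Myc 1.25 ± 0.17 higher. Stat3 read 1355 ± 150 (SD, n = 6) on gelatin, 1250 ± 134 in sorted cells, 1228 ± 82 (n = 7) at day 4, 1192 ± 79 at day 8 and 1189 ± 54 at day 14, and did not pass in any of the 3 comparisons. It was higher on gelatin by 0.30 (adjusted p = 2.54e-05 by limma) when all its probe sets were averaged, and lower at day 14 than at day 4 by 0.16 (adjusted p = 0.0390) after median centring. Between day 4 and day 8 Lifr alone passed, 1 of 12 (11.9% of all were higher), whereas without day 4 arrays 6 and 7 there were 3 higher and 2 lower. At day 14 against day 4, 2 were higher and 2 lower (25.3% and 19.6% of all).

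Among 10 other KLF family genes, relatives of Klf2, 1 was lower on gelatin and 3 were higher (18.2% and 21.4% of all probe sets), with 0 to 4 lower and 1 to 4 higher over the alternatives. The one lower was Klf4, a reprogramming factor, by 0.90 ± 0.32 (adjusted p = 0.0269), which did not pass without gelatin array 5 (adjusted p = 0.0548 by limma). Klf7 was 0.85 ± 0.14 higher on gelatin. From day 4 to day 8, Klf6, a widely expressed member, was the 1 of 10 that passed (11.9% of all were higher), and it rose by 0.68 ± 0.15. Klf4, at -0.82 (adjusted p = 0.0537 by limma), passed under some of the alternatives, and without day 4 arrays 6 and 7 it fell by 1.34 (adjusted p = 5.39e-05), with 2 of the 10 higher and 2 lower. At day 14 against day 4, 1 of the 10 was higher and 2 were lower (25.3% and 19.6% of all).

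Primed epiblast and primitive streak markers, which mark the state that follows the naive one, had 4 of 10 higher and 1 lower on gelatin (21.4% and 18.2% of all probe sets). Nodal, the signal that maintains primed cells, was 0.62 ± 0.16 higher on gelatin, and the POU factor Pou3f1 0.50 ± 0.10 higher. From day 4 to day 8, 3 rose and 4 fell (11.9% and 12.6% of all), with the Nodal antagonists Cer1 rising by 1.52 ± 0.21 and Lefty1 falling by 1.06 ± 0.16. Endoderm markers rose from day 4 to day 8 for 11 of 16 (11.9% of all) and fell for none, Rbp4 by 4.48 ± 0.26 and Apob, a lipoprotein component, by 4.29 ± 0.30. Of the 6 germ cell markers, 4 were lower on gelatin than in sorted cells (18.2% of all; 2 to 5 over the alternatives) and none was higher. From day 4 to day 8, 2 rose and 1 fell (11.9% and 12.6% of all), and the 1 that fell, the RNA helicase gene Ddx4, did not pass without any 1 of 8 arrays (adjusted p = 0.0514 to 0.111 by limma). At day 14 against day 4, 2 were higher and 1 lower (25.3% and 19.6%).

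The link among the 5 genes was described by Pearson's r of log2 signal between pairs of genes, each by its brighter probe set. Over the 31 arrays r was 0.73 to 0.95, but this mostly repeats the differences between groups that the genes were chosen for. With each group mean removed, r was positive for all 10 pairs, from 0.32 for Nanog and Tcl1 to 0.84 for Zfp42 and Fbxo15 and for Klf2 and Fbxo15. The day 8 arrays fall into separate sets and carry much of this value. Without them, over 25 arrays, r was 0.65 for Zfp42 and Fbxo15, 0.67 for Klf2 and Fbxo15, 0.39 for Zfp42 and Klf2 and -0.53 for Zfp42 and Tcl1. Within day 4 alone, r of Zfp42 and Tcl1 was -0.82, and -0.23 without arrays 6 and 7, which stood apart. In the other groups it was 0.47 on gelatin, -0.42 in sorted cells and 0.08 at day 14. The r of each gene with the mean profile of the other 4 fell most for Tcl1, from 0.54 with the day 8 arrays to -0.27 without them, and for Zfp42, from 0.76 to 0.24. It went from 0.79 to 0.50 for Klf2, and was close with and without day 8 for Nanog (0.48 and 0.42) and Fbxo15 (0.89 and 0.84). The part of day 4 arrays 6 and 7 in the values without day 8 was not tested.

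**Figure D5:**
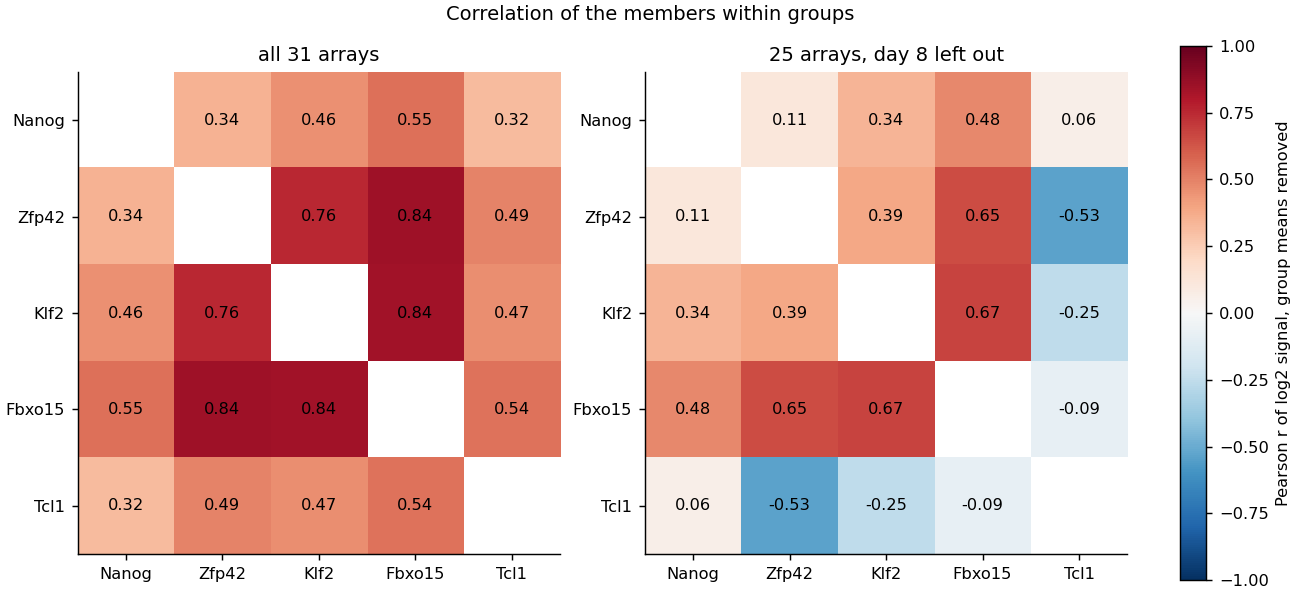
Pearson's r of log2 signal between the 5 genes after removal of each group's mean, over 31 arrays (left) and over the 25 arrays left without day 8 (right). All pairs are positive on the left, and 3 of the 4 pairs with Tcl1 are negative on the right.

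Within single groups, the pairs were tested by an exact two-sided permutation test in the gelatin, sorted, day 4 and day 14 groups, 40 tests in all. None passed after Benjamini-Hochberg adjustment (smallest adjusted p = 0.22), and 7 had an unadjusted p under 0.05. With 6 arrays the smallest exact p is 0.00278, which times 40 tests is 0.111, so 1 pair on its own could not have passed there. Day 14 had the most positive values, 9 of 10 pairs with a median r of 0.81. Nanog and Fbxo15 there had r = 0.959 (exact permutation p = 0.00556) and Spearman's rho = 0.943 (exact permutation p = 0.017), and r = 0.802 without the 2 arrays farthest from the median of Nanog. Day 14 array 6, which was the highest for Nanog, Zfp42, Klf2 and Fbxo15, weighed on these values, and r of Zfp42 and Fbxo15 went from 0.86 to -0.56 without the 2 arrays farthest from the median of Zfp42. Gelatin arrays gave 5 positive and 5 negative pairs, from -0.83 for Zfp42 and Klf2 to 0.76 for Nanog and Klf2, and sorted arrays 4 positive and 6 negative. The Gapdh 3′ to 5′ ratio was 6.31 to 6.85 in gelatin arrays 3, 4 and 6 and 3.48 to 4.04 in the rest. Gelatin arrays 3, 4 and 6 were also the highest for Nanog and Klf2 and the lowest for Zfp42. The part of this ratio in the gelatin pairs was not tested.

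Genes most like the 5 were found by r with the mean of their standardized profiles, as a description over arrays that share groups and amplification. Over 31 arrays and 8246 other genes, the highest were Twf2, an actin-binding protein, with 0.941, Trap1a with 0.940, the mitochondrial genes Mrps24 and Chchd10 with 0.930 each, Prrc1 with 0.915 and Fgf4 with 0.913. Setd6, Spic, Pla2g10 and Upp1 followed, from 0.910 to 0.899. Spic was dim, between 51 and 120 on all arrays. Twf2 read 735 ± 74 (SD, n = 6) on gelatin, 2855 ± 415 in sorted cells, 1593 ± 228 (n = 7) at day 4, 1473 ± 732 at day 8 and 666 ± 99 at day 14.

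With group means removed, the secreted phospholipase Pla2g10 was first with 0.954, followed by Fgf4 with 0.931, Gsta4 with 0.905, Prrc1 with 0.874 and Dppa4 with 0.851, and then by Crxos, Dppa3, Rhd, Tdgf1 and Twf2, from 0.849 to 0.825. Pla2g10 read 1805, 653, 2343, 759, 2200 and 835 in day 8 arrays 1 to 6, and Fgf4 read 3849, 1537, 4341, 1859, 5339 and 1882. Crxos, a homeobox gene, read 385, 75, 389, 63, 417 and 75, near the floor of 59.6 in arrays 2, 4 and 6. All 3 thus repeated the pattern of arrays seen for Zfp42. Without the day 8 arrays the value stayed at 0.845 for Pla2g10, 0.839 for Fgf4 and 0.837 for Tdgf1, whereas it was 0.491 for Prrc1, 0.437 for Twf2 and 0.230 for Crxos. Crxos was also near the floor on gelatin (55 to 68), at day 4 (59 to 76) and at day 14 (59 to 67), which limits its value.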

How the data were processed

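Expression was measured in 31 samples, each 1 Affymetrix MgU74Av2 array. The authors normalized and modeled the arrays with dChip, and the deposited values are linear signal intensity. The methods speak of biological samples and of a day 12, where the labels give day 14, which was followed. Probe sets were named through the platform annotation, where 10833 had 1 gene symbol, 396 several and 1193 none, and 66 control probe sets were left out. Signals under the 5th percentile (59.6) were raised to it, which compresses differences of dim probe sets, and 104 of 387128 values were exactly 0. Log2 values were fitted with limma 3.58.1 (R 4.3.3) as 5 group means over 31 arrays with a variance trend, and p-values were adjusted over 12422 probe sets, with 0.05 as the threshold. A gene with several probe sets entered lists and correlations by the one brightest on average. Linear amplification favors 3′ ends, and the number of arrays limits precision.

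Marker sums are sums of linear signal over the measured genes of a list. On simulated data for the day 14 minus day 4 comparison (12422 probe sets), 48 of 67 changes of 0.5, 66 of 67 of 1 and 66 of 66 of 2 on the log2 scale were found, with 11 false calls. The simulated noise was independent between arrays and few probe sets were changed, unlike in the measured arrays, so these rates need not hold for them. Named genes were all probe sets of the 5 genes, the 10 genes most like them by each of 2 measures, and up to 4 genes of each list with the largest difference past the threshold. Pou5f1, Stat3, Gbx2 and Bmp4 and the day 8 values of listed genes were picked beyond that rule after their values were seen. The 5 genes and the lists were chosen with earlier results of these data known. Python 3.11.15, scipy 1.17.1 and matplotlib 3.10.9 were used. Alternatives were quantile normalization, median centring, other floors, a filter on dim probe sets, array weights, no variance trend, the compared groups only, a replicate block, averaged probe sets and leaving out arrays.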

Additional observations from a re-analysis of the deposited data

Results flagged for a closer look

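Of 30 checks of single probe sets within groups, 2 found an array whose gap to its nearest neighbour was large against the range of the group, and chance gives about 1 in 20. Day 4 array 6 had the lowest Klf2 signal of its group, 2060 against 2926 to 3678 in the other 6, with a gap of 0.605 of the range. This array also had the lowest Zfp42 and Fbxo15 signals at day 4. Sorted array 6 had the lowest Tcl1 signal of its group, 525 against 651 to 706, with a gap of 0.724 of the range, and still lay above every gelatin array.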

How the results depend on the processing

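For day 14 minus day 4, 141 of 142 alternative values of the 6 probe sets kept their direction and their side of the threshold. The exception was Tcl1 at -0.34 (adjusted p = 0.0738) without both day 4 arrays 6 and 7, an alternative chosen after seeing the data, and the cause was not tested. Over all probe sets, 3147 were higher and 2434 lower, but 2122 higher and 4509 lower after median centring and 2365 and 3469 after quantile normalization, so the split between higher and lower depends on the scaling. Median centring moved the median difference from 0.02 to -0.10. Leaving out 1 array in turn gave 5158 to 5645 probe sets called in all. It gave -2.42 to -2.07 for Zfp42 and -0.51 to -0.41 for Tcl1. Of 54 untested differences, 0 moved by more than the spread between replicates. Leaving out 1 array cannot move a group mean that far here, so this count says nothing about those alternatives. The sign changed in 3 differences (Klf2 and Fbxo15 for day 8 minus day 4, Nanog for day 8 minus sorted), in 11 alternatives. The replicate block gave 3157 higher and 2364 lower, and Tcl1 at -0.41 (adjusted p = 0.0226). Replicate numbers were not taken as pairs, since the labels name no shared culture. Deviations of same-numbered arrays correlated at -0.35 to 0.49, with 23 of 60 values over 0.1. They were not set against differently numbered arrays, so this range cannot show that pairing is absent. Crxos is limited by the floor on gelatin, at day 4, at day 8 and at day 14, and depth has no count here.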
